A study of Mus musculus with 6 samples.

Results

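The genes described here are 9 components of the Hedgehog pathway: the ligand gene Shh, the receptor gene Ptch1, the ligand-binding genes Hhip, Boc and Cdon, the signal transducer gene Smo, and the transcription factor genes Gli1, Gli2 and Gli3. They were selected by gene symbol among the 23478 genes of the deposited count table, and all 9 were in it. RNA had been sequenced from cells sorted out of mouse tracheas at embryonic day 13.5, with 3 libraries of muscle cells and 3 of epithelial cells. All 6 libraries were controls of a single genotype, Bmp4 f/f; gamma SMA eGFP, which combines a floxed Bmp4 gene with eGFP expressed as a reporter for gamma smooth muscle actin. No Cre driver is named in the labels. Muscle cells were the GFP-positive cells, so they were defined by activity of the reporter, and epithelial cells were those stained for surface Epcam. Whether a library came from 1 embryo or from pooled embryos is not given in the sources used here, so the p-values measure the spread between these libraries.

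In Hedgehog signalling, a secreted ligand binds Patched receptors on the receiving cell and so relieves their block on Smoothened, a membrane protein that acts through the primary cilium. Smoothened activity changes the processing of the GLI transcription factors, which switch target genes on or, in their cleaved form, off. Gli1, Ptch1 and Hhip are themselves widely used target genes, and the last of these encodes a membrane protein that binds and sequesters the ligand. In the embryonic airway the epithelium is known as the source of Sonic hedgehog and the surrounding mesenchyme as the receiving tissue, where the signal is required for tracheal smooth muscle and cartilage. The comparison of muscle with epithelium gives the relative transcript level of each component in these sorted populations.

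The libraries held between 11847432 and 54848820 counts. The sorted types matched their markers: summed over 10 smooth muscle markers the level was 4137 to 17828 CPM (counts scaled to library size, corrected by TMM factors) in muscle and 122 to 154 in epithelium, and over 10 epithelial markers it was 13.1 to 29.9 in muscle and 3207 to 4681 in epithelium. Actg2, the gene for gamma smooth muscle actin, and Epcam are among these markers, so part of the match followed from the sort itself. The labels call both populations epithelial and mesenchymal under cell type, and the sorted type was used here. Fibroblast markers (6 genes, Col1a1 and Pdgfra among them) were high in all muscle libraries, at 6044 to 8071 CPM in sum, and were at 216 to 1672 CPM in epithelium. In muscle replicate 2 their sum, 7269 CPM, exceeded that of the smooth muscle markers, 4137 CPM. Summed levels in muscle and epithelium ranged over 39.2 to 65.2 and 1.25 to 55.8 CPM for 7 endothelial markers, and over 3.42 to 41.2 and 3.74 to 30.2 CPM for 6 immune markers. They ranged over 32.8 to 59.5 and 34.5 to 76.9 CPM for 7 neural and glial markers, over 3.53 to 18.6 and 157 to 407 CPM for 5 mesothelial markers, of which Krt19 is also a keratin of simple epithelia, and over 846 to 1384 and 325 to 561 CPM for 8 cartilage markers. Krt19 alone had 154, 391 and 222 CPM in epithelium replicates 1 to 3. Each other mesothelial marker had at most 6.48 CPM in epithelium and 9.44 CPM in muscle. Of 6 erythroid markers (11.1 to 37.3 and 9.0 to 24.4 CPM), 2, the globin genes Hba-a1 and Hbb-bt, were at 0 in all libraries. The libraries numbered 2 and epithelium replicate 3 held more counts of olfactory and vomeronasal receptor genes, which these cells are not known to use: the mean over 1428 such genes was 0.60, 1.23 and 0.43 CPM there and at most 0.024 CPM elsewhere.

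5 of the 9 Hedgehog genes were higher in muscle at an adjusted p under 0.05 (edgeR's quasi-likelihood test, fitted and adjusted over 19375 genes), and none was higher in epithelium. Across all tested genes 10.7% passed in either direction and 6.58% were higher in muscle, with 4.11% higher in epithelium. All 9 genes averaged 2 or more in log2 CPM, and of all tested genes at that level 16.2% passed. The 5 genes were Hhip, Gli2, Gli1, Boc and Cdon. The other 4, Shh, Ptch1, Smo and Gli3, had an unadjusted p under 0.05 and did not pass after adjustment. Of all 19375 tested genes 4197 had an unadjusted p under 0.05. Levels in the muscle and epithelial libraries did not overlap for 8 of the 9 genes, Gli3 being the exception, where 26.9% of all tested genes did not overlap. The median log2 fold change of the 9 genes was 1.72, against -0.10 over all tested genes. In bulk libraries fewer cells expressing a gene and less RNA per cell cannot be told apart.

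**Figure D1:**
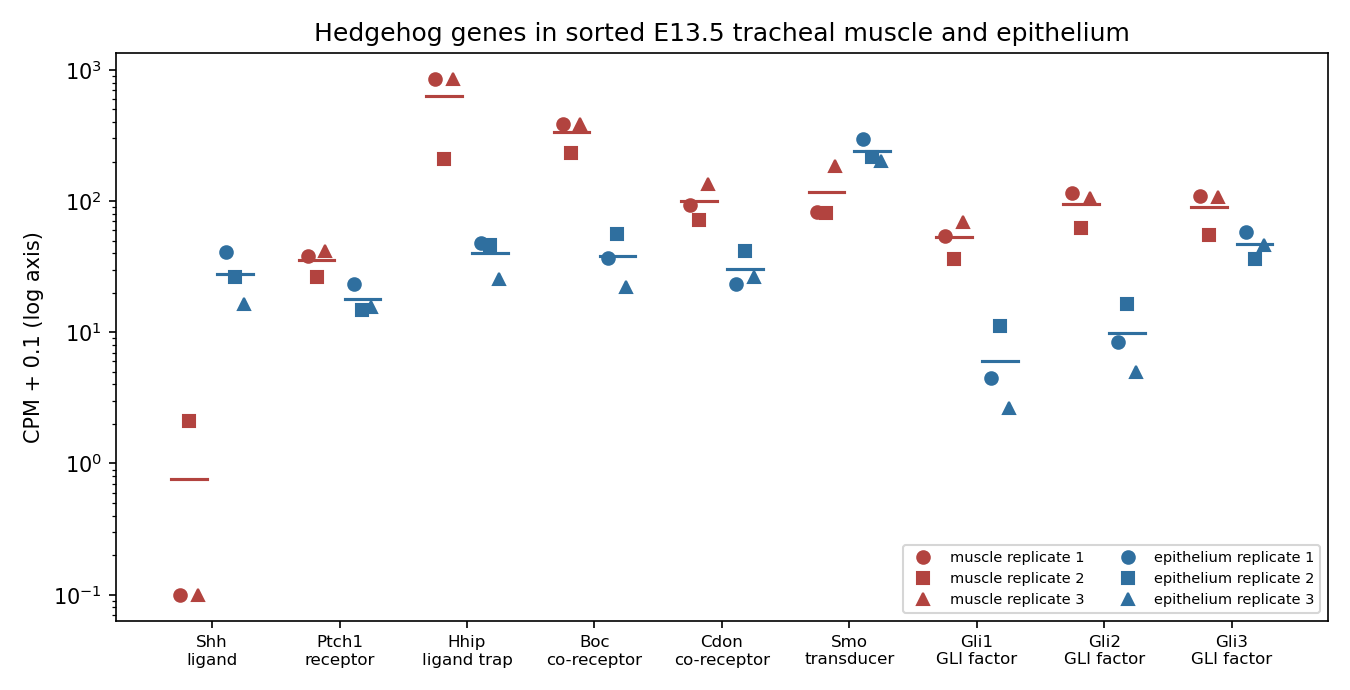
Level of each Hedgehog gene in each library, as CPM + 0.1 on a log axis, with muscle in red, epithelium in blue, one symbol per replicate number and a bar at the group mean. Shh sat at the bottom in muscle, with 2 libraries at 0, and Hhip, Boc, Gli1 and Gli2 were higher in every muscle library than in any epithelial one.

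Shh transcripts were found mainly on the epithelial side. The gene, on chromosome 5 (GRCm38, 28456815 to 28467256, minus strand), had 2186, 395 and 436 counts in epithelium replicates 1 to 3, or 40.6, 26.4 and 16.4 CPM. Muscle replicates 1 and 3 had no Shh counts and muscle replicate 2 had 40 counts, or 2.00 CPM. All 3 epithelial libraries thus lay above all 3 muscle libraries. The mean was 27.8 ± 12.2 CPM (SD, n = 3) in epithelium and 0.67 ± 1.15 in muscle, a log2 fold change of -5.48 ± 1.5 (SE, adjusted p = 0.051, edgeR).

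The Shh call changed with the fit. The adjusted p was 0.00010 without muscle replicate 2 (edgeR), the single muscle library with Shh counts. It was 0.0033 with the libraries of the later header date only, 0.031 with the header date as a term and 0.027 with halved counts, the last 2 with muscle replicate 2 kept. It ranged from 0.00010 to 0.22 over the 20 alternative fits. The 2 muscle libraries without counts were also taken at a floor of 3 counts per library (0.095 CPM on average). The epithelial mean of Shh was 293 times that floor. This ratio of means is not a lower bound: it leaves out muscle replicate 2 and the spread between the epithelial libraries. The floor covers counting error at most. Over all 3 muscle libraries the fitted fold was 44.6. In muscle replicate 2 Shh stood at 7.18% of its epithelial mean, where the median of the 10 epithelial markers was 0.77% and the highest of them 6.25%. That library was also one of those with counts of olfactory receptor genes. The antisense gene 9530036O11Rik shares 446 exonic bases with Shh, 15.7% of the exonic length of Shh, and libraries of this kind keep no strand. It had 32 counts in muscle replicate 2 and none in the other muscle libraries, and 49 to 61 in the epithelial ones. The part of any of these in the 40 counts was not tested.

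The other ligand genes were scarce. Ihh, the Indian hedgehog gene, had 3.83, 2.67 and 3.04 CPM in epithelium and 0.68, 1.00 and 0.25 CPM in muscle, without overlap and without passing the test (log2 fold change -2.30 ± 1.33, adjusted p = 0.41, edgeR). Dhh, the Desert hedgehog gene, had at most 51 counts in any library, and its groups overlapped (log2 fold change -0.34 ± 2.34). Of the genes for making and releasing the ligand, Hhat, which encodes the acyltransferase that palmitoylates it, had 29.2 ± 4.94 CPM in muscle and 20.5 ± 6.12 in epithelium (SD, n = 3). Disp1, which encodes the transporter that releases the lipid-bearing ligand, stood at 46.4 ± 11.7 and 45.6 ± 8.0 CPM, and its log2 difference was 0.02 with a 95% interval from -0.58 to 0.62.

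Of these 9 ligand and ligand-release genes 11.1% passed in edgeR, where 10.7% of all tested genes did. Gpc3 was the only one to pass in edgeR and in DESeq2, which called 3531 of all 19375 tested genes. No adjusted p of DESeq2 was at hand for Ihh and Dhh. Gpc3 encodes a glypican that competes with Patched for the ligand. Its level was 2542, 2527 and 2505 CPM in muscle and 948, 1050 and 951 CPM in epithelium, so it was abundant on both sides and higher in every muscle library (log2 fold change 1.36 ± 0.22, adjusted p = 0.0052, edgeR). Without epithelium replicate 3 its adjusted p was 0.055. Scube1, for a secreted protein of the family that helps ligand release, had 50.9 ± 24.2 CPM in muscle and 16.9 ± 10.2 in epithelium (SD, n = 3) and did not pass (adjusted p = 0.079, edgeR), while limma-voom called it.

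Hhip showed the largest change toward muscle among the 9 genes. The gene lies on chromosome 8 (79965851 to 80058006, minus strand) and encodes Hedgehog interacting protein. It had 854, 208 and 846 CPM in muscle replicates 1 to 3 and 48.2, 46.2 and 25.6 CPM in the epithelial ones. Muscle replicate 2 was the low one, and it still lay above every epithelial library. The log2 fold change was 3.99 ± 0.56, or 15.9-fold (adjusted p = 0.0025, edgeR).

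The receptor gene Ptch1 had a smaller difference that did not pass. Ptch1 (chromosome 13, 63508328 to 63573598, minus strand) had 38.2, 26.3 and 41.3 CPM in muscle and 23.3, 14.8 and 15.4 CPM in epithelium. The groups were close and did not overlap, and the difference, 0.98 ± 0.29 on the log2 scale, missed the threshold (adjusted p = 0.066, edgeR). Its 95% interval ran from 0.33 to 1.64. Ptch1 passed in 6 of the 20 alternative fits, among them those without muscle replicate 2 (adjusted p = 0.031) and without epithelium replicate 1 (adjusted p = 0.045).

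Boc, Cdon and Gas1 encode co-receptors that bind the ligand together with Patched, and all 3 were higher in muscle. Boc (chromosome 16, 44485049 to 44558897, minus strand) had 384, 232 and 385 CPM in muscle and 36.4, 55.8 and 21.9 CPM in epithelium, a log2 fold change of 3.14 ± 0.40, or 8.79-fold (adjusted p = 0.0015, edgeR). Cdon (chromosome 9, 35421128 to 35507652, plus strand) had 92.9, 71.4 and 135 CPM in muscle and 23.0, 41.2 and 26.5 CPM in epithelium. Its groups did not overlap, and its rise of 1.72 ± 0.33 (3.30-fold, adjusted p = 0.010, edgeR) was the smallest of the 5 called genes. Without epithelium replicate 3 the call of Cdon was lost (adjusted p = 0.056). Gas1 had 54.2, 36.9 and 83.3 CPM in muscle and 3.36, 10.2 and 2.52 CPM in epithelium, and rose 11.1-fold (log2 3.47 ± 0.57, adjusted p = 0.0049, edgeR). Lrp2, for the endocytic co-receptor megalin, was uneven within both groups, at 0.68, 19.9 and 0.40 CPM in muscle and 8.81, 35.1 and 22.8 CPM in epithelium, and did not pass.

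Per kilobase of exon, the summed level of 5 genes for ligand-binding proteins (Ptch1, Hhip, Boc, Cdon and Gas1) was 214, 98.7 and 228 CPM per kb in muscle and 19.3, 27.5 and 13.1 in epithelium. Boc made up 43.7% ± 8.0 of it in muscle and 41.9% ± 4.08 in epithelium (SD, n = 3), with overlapping groups. Hhip made up 36.1% ± 11.2 and 22.5% ± 4.6, also with overlapping groups. Ptch1 made up 1.26%, 1.88% and 1.27% of the sum in the muscle libraries and 8.53%, 3.79% and 8.28% in the epithelial ones. Cdon likewise took a smaller share in muscle, at 7.56% ± 1.87 against 20.4% ± 5.39, without overlap. The size of the Ptch1 share depends on the length taken. Its annotated exons together are 14.19 kb long and its longest coding transcript 7.725 kb. With the latter its mean level in muscle was 4.56 in place of 2.49 CPM per kb, and the shares were not computed on that length. With 3 libraries per group the exact two-sided permutation test cannot go below p = 0.10, the value it gave for the shares of Ptch1 and Cdon. After Benjamini-Hochberg adjustment over the 16 shares, sums and ratios computed here, these were 0.13.

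Smo was the one member of the receiving side with a higher mean in epithelium. The gene (chromosome 6, 29735503 to 29761365, plus strand) had 82.0, 81.5 and 186 CPM in muscle and 299, 216 and 202 CPM in epithelium. Muscle replicate 3 came near the epithelial libraries without reaching them. The log2 fold change was -1.04 ± 0.37 with a 95% interval from -1.87 to -0.21, and it did not pass the test (adjusted p = 0.12, edgeR). It was negative in all 20 alternative fits and passed in 6 of them, including that without muscle replicate 3 (-1.54, adjusted p = 0.024). The ratio of Ptch1 to Smo per kilobase of exon was -2.97 ± 0.54 on the log2 scale in muscle and -5.09 ± 0.10 in epithelium (SD, n = 3). Smo transcripts thus exceeded Ptch1 transcripts on both sides, and by more in epithelium, without overlap between the groups (exact permutation p = 0.10, the smallest possible, 0.13 adjusted).

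None of 10 genes for regulators of Smoothened passed edgeR's test, none had an unadjusted p under 0.05, and DESeq2 and limma-voom called 0 as well. They include Evc and Evc2, whose products form a complex with Smoothened at the base of the cilium (log2 fold changes 0.50 ± 0.25 and 0.40 ± 0.26), the kinase gene Grk2 (0.09 ± 0.32) and Gpr161, for a ciliary receptor that restrains the pathway (0.29 ± 0.96). No group separated without overlap in this list, where 26.9% of all tested genes did. Of 12 genes for regulators of the GLI proteins none passed in edgeR and 3 had an unadjusted p under 0.05, while DESeq2 called 3 (Prkacb, Prkar1a and Sufu) and limma-voom 1 (Prkacb), all higher in muscle. Of all 19375 tested genes 2071 passed in edgeR and 4197 had an unadjusted p under 0.05. DESeq2 called 3531 of them and limma-voom 2486. Sufu, whose product holds GLI proteins in the cytoplasm, had 250, 91.5 and 224 CPM in muscle and 117, 76.4 and 72.7 CPM in epithelium (log2 fold change 1.09 ± 0.39, adjusted p = 0.13, edgeR). Its groups overlapped through muscle replicate 2, without which the adjusted p was 0.0086. Kif7, for a kinesin that organises the tip of the cilium, had 9.53 ± 1.96 and 8.26 ± 2.90 CPM, and the sign of its difference turned with library size as the only scaling.

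The GLI genes fell into a pair that differed strongly and one that did not pass. Gli1 (chromosome 10, 127329882 to 127341974, minus strand), which encodes an activator and is a direct target of the pathway, had 53.7, 36.1 and 68.8 CPM in muscle and 4.39, 11 and 2.55 CPM in epithelium. It rose by 3.16 ± 0.53 on the log2 scale, or 8.96-fold (adjusted p = 0.0057, edgeR). Gli2 (chromosome 1, 118834132 to 119053619, minus strand), for the main activator upstream of Gli1, had 115, 62.7 and 105 CPM in muscle and 8.35, 16.4 and 4.84 CPM in epithelium. It rose by 3.27 ± 0.46, or 9.64-fold (adjusted p = 0.0026, edgeR). Both genes were lowest in muscle replicate 2 and highest in epithelium replicate 2 within their groups, and both kept their call in all 20 alternative fits.

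Gli3 (chromosome 13, 15463235 to 15730026, plus strand), whose product acts mostly as the cleaved repressor, had 108, 55.3 and 108 CPM in muscle and 57.6, 36.3 and 46.1 CPM in epithelium. Muscle replicate 2 lay below epithelium replicate 1, so the groups overlapped. The log2 fold change of 0.95 ± 0.32 did not pass (adjusted p = 0.10, edgeR), and without muscle replicate 2 it was 1.22 with an adjusted p of 0.014. Gli3 passed in 7 of the 20 alternative fits.

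The makeup of the GLI transcripts was compared next, with groups too small for the exact test to pass. Per kilobase of exon, Gli3 was 29.1%, 26.1% and 27.9% of the summed GLI level in the muscle libraries. It was 74.2%, 45.2% and 79.8% in the epithelial ones. Gli1 made up 31.5% ± 3.36 of the sum in muscle and 15.2% ± 9.71 in epithelium (SD, n = 3), and Gli2 40.8% ± 2.60 and 18.4% ± 8.88. The groups did not overlap for any of the 3 shares. The log2 ratio of Gli1 to Gli3 was 0.18 ± 0.22 in muscle and -2.26 ± 1.31 in epithelium, and that of Gli1 to Gli2 was -0.38 ± 0.24 and -0.35 ± 0.21, which overlapped. The exact permutation p was 0.10 (0.13 adjusted) for the Gli3 share and the Gli1 to Gli3 ratio, and 0.90 for the Gli1 to Gli2 ratio.

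**Figure D2:**
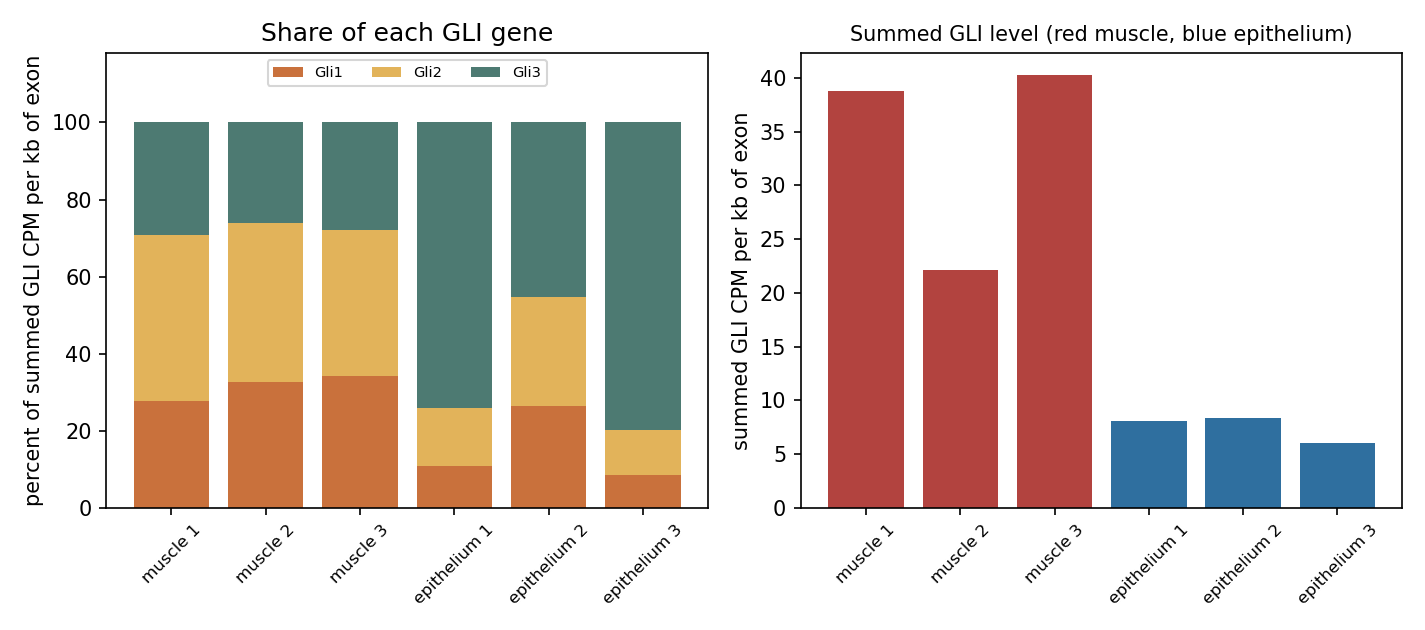
Left, the share of Gli1, Gli2 and Gli3 in their summed CPM per kilobase of exon in each library, and right, that sum with muscle in red and epithelium in blue. Gli3 is 26.1% to 29.1% of the sum in muscle and 45.2% to 79.8% in epithelium, and the sum is 22.1 to 40.3 in muscle and 6.03 to 8.38 in epithelium.

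Levels of different genes were set side by side per kilobase of exon only. In muscle the order by mean was Boc (75.0 ± 19.8 CPM per kb, SD, n = 3), Hhip (70.1 ± 40.8), Smo (20.7 ± 10.7), Gli2 (13.7 ± 4.03), Cdon (12.9 ± 4.19), Gli1 (10.6 ± 3.28), Gli3 (9.43 ± 3.17), Ptch1 (2.49 ± 0.56) and Shh (0.23 ± 0.40). Neighbours in this order overlapped from Boc down to Gli3, and Gli3, Ptch1 and Shh were apart. In epithelium the order was Smo (42.5 ± 9.34), Shh (9.77 ± 4.28), Boc (8.55 ± 3.82), Gli3 (4.87 ± 1.11), Hhip (4.41 ± 1.38), Cdon (3.92 ± 1.25), Gli2 (1.43 ± 0.86), Ptch1 (1.26 ± 0.33) and Gli1 (1.20 ± 0.89). Smo stood apart from Shh there, and Cdon from Gli2, while the other neighbours overlapped. Shh thus ranked second in epithelium and last in muscle. With the length of the longest coding transcript instead, Ptch1 came to 4.56 ± 1.03 in muscle and 2.31 ± 0.61 in epithelium, since all its annotated exons together are 14.19 kb long. It then passed Gli2 in the epithelial order, and no other place changed.

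**Figure D3:**
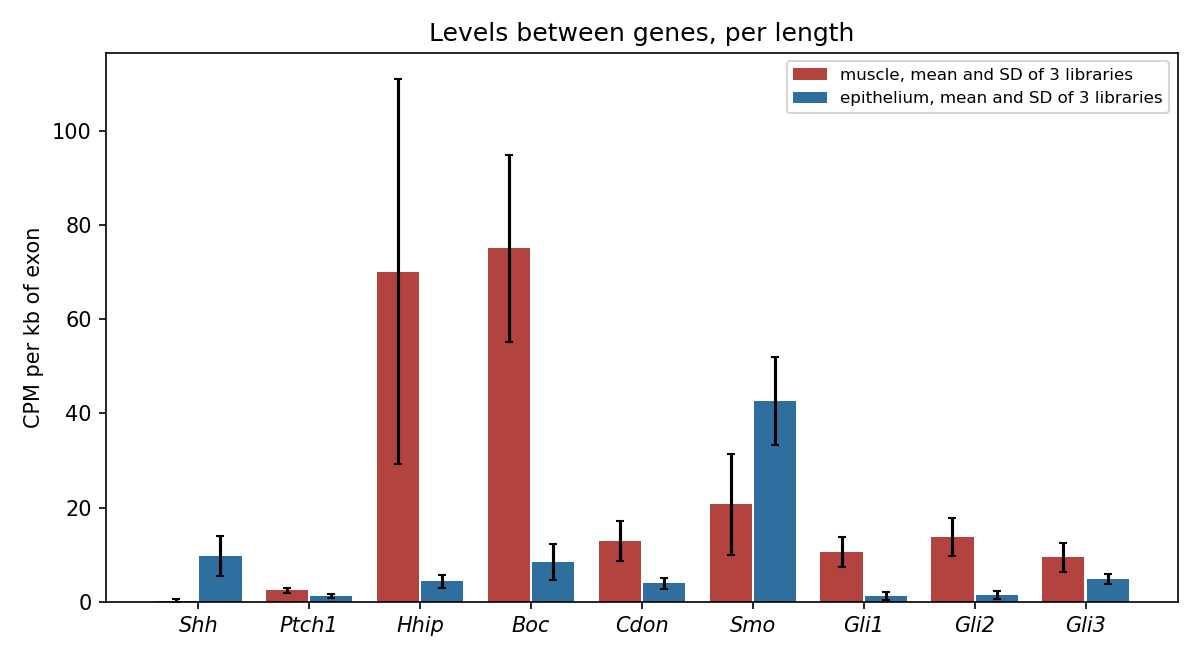
Mean level per kilobase of exon with the SD over 3 libraries, muscle in red and epithelium in blue. Boc (75.0) and Hhip (70.1) are highest in muscle, and Smo (42.5) is highest in epithelium.

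Several members were detected in epithelium at a larger share of their muscle mean than most smooth muscle markers. In epithelium replicates 1 to 3 the median of the 10 smooth muscle markers was 0.93%, 1.99% and 0.72% of the muscle mean. The highest of them, Smtn, which encodes the cytoskeletal protein smoothelin, was at 17.2%, 10.8% and 17.1%, and the next, Lmod1, at 7.17%, 8.25% and 6.70%. Gli1 was at 8.30%, 20.9% and 4.83% of its muscle mean, Gli2 at 8.86%, 17.4% and 5.14%, Boc at 10.9%, 16.7% and 6.57% and Hhip at 7.58%, 7.27% and 4.02%. In replicates 1 and 3 these 4 genes were below Smtn. Ptch1 was at 66.1%, 41.9% and 43.7% and Gli3 at 63.7%, 40.1% and 51.0%. The median of the 6 fibroblast markers was 4.25%, 29.8% and 5.70%, highest in epithelium replicate 2 as were Gli1, Gli2, Boc and Cdon. That library was also the highest epithelial one for every other summed marker list except the epithelial one, and for olfactory receptor genes. Against the mean of the other epithelial libraries it had 686% for fibroblast, 518% for endothelial, 274% for immune and 124% for smooth muscle markers. The part of other mesenchymal cells, of other cell types or of background counts in these values was not tested. Without epithelium replicate 2 the same 5 genes passed the test, as did 2119 of all 19873 genes tested.

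**Figure D4:**
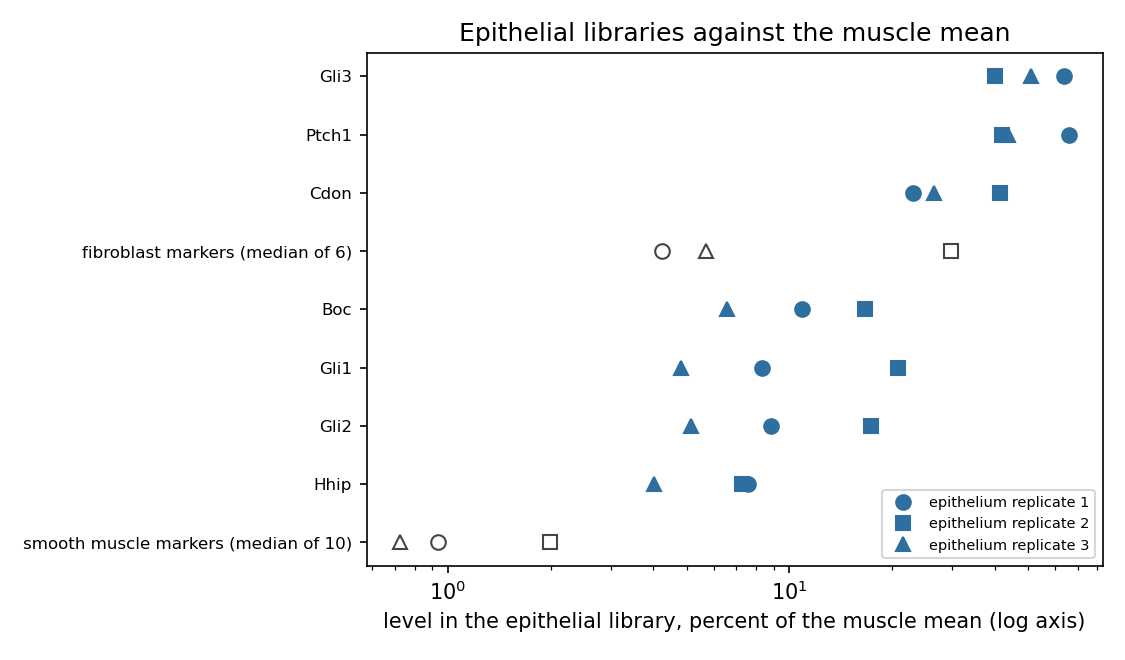
Level in each epithelial library as a percent of the muscle mean (log axis) for the genes other than Shh and Smo (filled) and for the median of smooth muscle and fibroblast marker lists (open). Epithelium replicate 2 (squares) lies to the right for Gli1, Gli2, Boc, Cdon and both marker lists, and to the left for Gli3 and Ptch1. It is at 29.8% for the fibroblast markers and 1.99% for the smooth muscle markers.

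Muscle replicate 2 also differed from the other muscle libraries. It was the lowest muscle library for all 8 members other than Shh. The share of all tested genes that were lowest there was not counted. This library had 24.5% of the mean of the other muscle libraries for Hhip and 51.2% to 66.1% for the other 7, where the summed smooth muscle markers were at 23.8% and the summed fibroblast markers at 103%. The other lists were at 552% (immune), 454% (mesothelial), 175% (neural and glial), 149% (epithelial), 123% (cartilage), 101% (endothelial) and 57.5% (erythroid). Without that library 8 of the 9 genes passed, Smo being the exception. The same fit called 2573 of all 20064 genes it tested, where the main fit called 2071 of 19375. Both libraries numbered 2 carry a header identifier read here as an earlier date, with 1 library per group, which allows no test. Between them the log2 difference in CPM + 0.5 was 1.67 for Gli1, 1.91 for Gli2, 2.16 for Hhip, 2.05 for Boc, 0.78 for Cdon, 0.81 for Ptch1, 0.60 for Gli3, -1.40 for Smo and -3.43 for Shh. In the means of the libraries of the later date it was 3.96, 3.96, 4.51, 3.70, 2.18, 1.02, 1.05, -0.90 and -5.86 for the same genes. It was larger in size at the later date for 8 of the 9 genes and smaller for Smo, and the share over all tested genes was not counted. The later date alone, with 2 libraries per group, gave 7 of the 9 genes past the threshold, adding Shh and Gli3. More genes passed in general there, 2928 of the 16634 tested.

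The genes of the target list used here, which mixes mesenchymal factors with growth genes such as Mycn and Ccnd2, did not move as one. Of 9, edgeR called 3 toward muscle and 2 toward epithelium, as it did 6.58% and 4.11% of all tested genes, and the median log2 fold change was 1.22 against -0.10. DESeq2 called 4 and 3 (1949 and 1582 of all tested genes), adding Foxl1 and Osr2. By limma-voom 4 and 2 were called (1590 and 896 of all), adding Foxl1. Foxf1, a forkhead factor gene of gut and lung mesenchyme, had 145, 48.5 and 154 CPM in muscle and 5.71, 13.0 and 1.99 CPM in epithelium, a 17.1-fold rise (log2 4.10 ± 0.71, adjusted p = 0.0069, edgeR). Its call was lost without epithelium replicate 1 (adjusted p = 0.058) and with the covariate for olfactory receptor counts (0.11). Osr1, for a zinc finger factor of foregut mesenchyme, had 544, 415 and 577 CPM in muscle and 31.4, 92.2 and 32.9 CPM in epithelium, a 9.84-fold rise (adjusted p = 0.0023, edgeR). Bmp4, a signalling ligand and the floxed gene of these embryos, rose 2.33-fold (adjusted p = 0.018, edgeR), a call that 4 of the 6 leave-one-out fits removed, with adjusted p up to 0.12. Foxl1 had 26.7 ± 14.3 CPM in muscle and 3.31 ± 3.12 in epithelium and did not pass (adjusted p = 0.053, edgeR).

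Mycn and Ccnd2 went the other way. Mycn, a growth-promoting transcription factor gene that Hedgehog signalling induces in neural progenitors, had 15.8, 12.5 and 9.93 CPM in muscle and 337, 98.8 and 201 CPM in epithelium. It was 16.7-fold higher in epithelium (log2 fold change -4.06 ± 0.47, adjusted p = 0.0010, edgeR), in all 3 libraries. Ccnd2, for a D-type cyclin of the cell cycle, was 2.82-fold higher in epithelium (log2 fold change -1.49 ± 0.28, adjusted p = 0.0094, edgeR), and leaving out muscle replicate 1 gave an adjusted p of 0.059. In the whole set of 42 other pathway genes the test called 5 toward muscle and 2 toward epithelium, or 16.7%, and the median log2 fold change was 0.30. Of the 36 that averaged 2 or more in log2 CPM 19.4% passed, and of all tested genes at that level 16.2%. The 7 called genes were Gpc3, Gas1, Foxf1, Osr1 and Bmp4 toward muscle and Mycn and Ccnd2 toward epithelium.

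**Figure D5:**
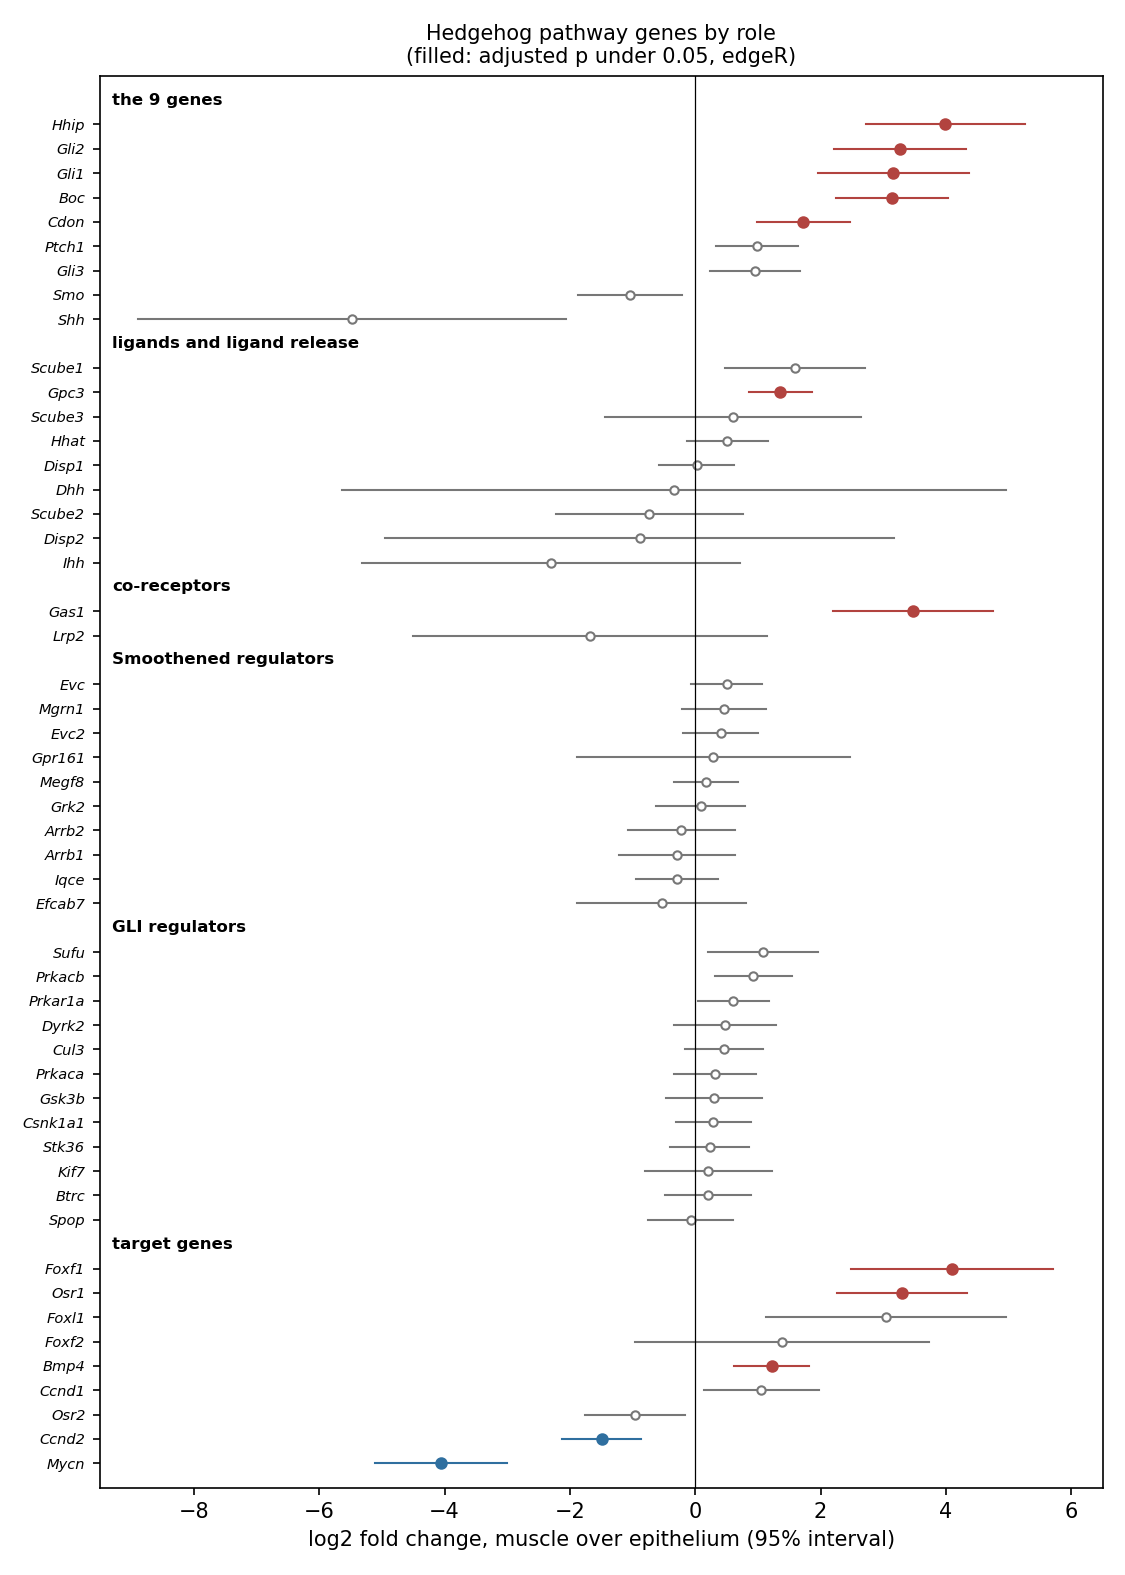
Log2 fold change of muscle over epithelium with its 95% interval for the 9 genes and 42 other Hedgehog pathway genes, grouped by role; filled points passed an adjusted p of 0.05 in edgeR, red higher in muscle and blue higher in epithelium. No regulator of Smoothened or of GLI proteins is filled, although the intervals of Sufu, Prkacb and Prkar1a lie above 0, while co-receptors and target genes spread from 4.10 (Foxf1) to -4.06 (Mycn).

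The genes with the most similar profile over the 6 libraries were sought among tested genes averaging 2 or more in log2 CPM, by the Euclidean distance between centred log2(CPM + 1) values. For Shh they were Trp63, which encodes the basal cell factor p63 (distance 0.57), Llgl2 (0.82) and Upk3bl (0.86). Trp63 had 71.8, 65.6 and 40.3 CPM in epithelium and 0.99, 5.14 and 0.53 CPM in muscle, with the same high value in muscle replicate 2. For Gli1 they were Gas1 (0.42), Gli2 (0.43) and Olfml3 (0.45), so that 2 of the 3 were other Hedgehog genes. For Ptch1 they were Prkacb, for a catalytic subunit of protein kinase A (0.17), Ankrd40 (0.20) and Jkamp (0.21).

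The sequence just upstream of the genes was searched for the binding consensus of GLI factors. RefSeq promoter windows of 300 bases, from 250 before to 50 after a start site (GRCm38.p6), were at hand for 6 of the 9 genes: Ptch1, Smo, Gli2, Gli3, Hhip and Cdon. None held the consensus GACCACCCA on either strand, exactly or with 1 mismatch. Of all 32851 windows 0.25% held an exact match and 6.74% a match with at most 1 mismatch. The windows differed in CG dinucleotides, from 3 in Cdon to 47 in Ptch1, with a median of 7 over all windows. The Cdon, Ptch1 and Gli3 windows belong to a start site inside the annotated gene. Those of Hhip (chr8:80057959-80058258, minus strand, 30 CG), the gene with the largest rise in muscle, and Smo (chr6:29735247-29735546, plus strand, 17 CG), the receiving gene with the higher mean in epithelium, are printed 5′ to 3′ with each CG in capitals.
Hhip: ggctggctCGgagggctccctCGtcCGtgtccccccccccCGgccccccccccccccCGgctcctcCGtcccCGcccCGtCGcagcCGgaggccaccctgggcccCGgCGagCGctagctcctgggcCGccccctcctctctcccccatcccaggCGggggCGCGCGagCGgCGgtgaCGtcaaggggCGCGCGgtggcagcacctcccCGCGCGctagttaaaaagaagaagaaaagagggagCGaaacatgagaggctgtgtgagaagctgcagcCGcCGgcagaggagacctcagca
Smo: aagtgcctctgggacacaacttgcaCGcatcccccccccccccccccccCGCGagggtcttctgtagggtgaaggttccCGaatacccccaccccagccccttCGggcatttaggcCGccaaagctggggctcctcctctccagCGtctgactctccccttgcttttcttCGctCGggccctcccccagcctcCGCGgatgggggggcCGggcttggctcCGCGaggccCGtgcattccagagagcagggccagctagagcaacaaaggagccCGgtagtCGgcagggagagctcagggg
The absence of a match says only that these letters are not in these windows.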

How the data were processed

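RNA of 3 muscle and 3 epithelial libraries was measured. Per the labels' protocols, cells were dissociated with TrypLE and sorted, Trizol served for RNA extraction, SMART-Seq v4 for cDNA and Nextera XT for the libraries. Such libraries have no molecular identifiers and no strand, so counts hold PCR copies, and intervals and floors cover counting error only. The submitters' processing notes name the build mm10 and the tools Trim Galore, Bowtie2, Cufflinks and DESeq, without roles. As deposited, values are counts, whole numbers for each of 23478 gene symbols; the counting step, annotation and filters are not given in the sources used here. Of counts from 1 to 19, 73.8% to 79.6% per library were even.

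The main analysis ran edgeR 4.0.16 in R 4.3.3 on the counts as deposited (filterByExpr, TMM scaling, robust quasi-likelihood test, two-sided, no covariate, Benjamini-Hochberg over 19375 genes, threshold 0.05), checked on simulated data. CPM used TMM-scaled library sizes. Standard errors were derived from the test statistic. Exonic lengths and positions came from GENCODE release M21 (GRCm38, the assembly of mm10) in place of the planned protein lengths, and 42 of 43 other pathway genes were in the table, Grk2 under its older symbol Adrbk1. Header identifiers were read as dates, day 3 of month 9 for the libraries numbered 2 and day 16 for the other 4, which the headers do not state. Alternatives used other scalings, filters, tools (DESeq2 1.42.0, limma 3.58.1), covariates, halved counts and libraries left out. The genes named were all 9 members, 7 further pathway genes whatever their values, each other pathway gene past the threshold, and the 3 most similar genes of Shh, Ptch1 and Gli1; others were named after their values were seen. An item of the pathway lists is not reported here. Members and lists were chosen with earlier results of these data known.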

Additional observations from a re-analysis of the deposited data

How the results depend on the processing

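Of the 9 Hedgehog genes, 5 passed, and 8 passed with upper quartile scaling, the Wald test of DESeq2, the header date as a term or the covariate for olfactory receptor counts; the fits without a library gave 4 to 8. Hhip, Boc, Gli1 and Gli2 kept their call in all 20 alternatives and Cdon in 18. Smo, Ptch1, Gli3 and Shh kept their direction in all 20. Of the other pathway genes 7 passed, 12 with DESeq2 and 12 with the libraries of the later header date only, and 5 to 10 without a library. Over all genes 2071 passed, 3531 with DESeq2, 3178 with the header date as a term, 983 at an adjusted p under 0.01, and 1169 to 2573 without a library. Upper quartile scaling gave 2450, the covariate for olfactory receptor counts 2967 and the libraries of the later header date 2928. The cause was not tested. The median log2 fold change of all genes moved from -0.10 to -0.33 with library size only, which changed the calls from 1274 in muscle and 797 in epithelium to 1041 and 1439. The sign turned for Dhh with limma-voom (1.49), the later header date (0.19), the covariate for receptor counts (2.08), without muscle replicate 1 (0.26) and without epithelium replicate 2 (0.82), over a range of -0.91 to 0.82 without a library. It turned for Kif7 with library size only (-0.049) and without epithelium replicate 1 (-0.0075), over a range of -0.0075 to 0.47 without a library. Allowing 1 mismatch moved the share of windows with the GLI consensus from 0.25% to 6.74%.

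With the replicate number as a block, 6 members passed, Gli3 being added (adjusted p = 0.028), 8 other pathway genes passed, and the call of Foxf1 was lost (0.056). More genes passed in general in that fit, 2418 of the 19375 tested, where the main fit called 2071. The numbers were not taken to pair the libraries. Deviations from the group mean correlated at 0.59 for the libraries numbered 1, 0.73 for those numbered 2 and -0.57 for those numbered 3. Not every library correlated best with its own number. Within a group of 3 libraries the deviations depend on each other, so these correlations cannot decide whether equal numbers are paired. With 3 libraries per group and few counts in some libraries for genes such as Shh, Ihh and Dhh, differences of low genes are the least certain.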
